A study of Homo sapiens with 5 samples.

Results

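RB1, RBL1 and RBL2 are the retinoblastoma family of pocket proteins, and E2F1 and E2F3 are activating E2F transcription factors, all measured on an array of apoptosis and cancer genes. Every probe annotated to one of these gene names was taken, with no threshold on its values; E2F5, also on the array, is described with the partners of the family. That gave 6 probes, of 3048 on the array, for 5 of the 2078 named genes. RB1 had a brighter and a dimmer probe and each other gene had 1 probe. Both RB1 probes and the RBL1 probe were printed 4 times per array, and the RBL2, E2F1 and E2F3 probes 8 times.

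The RNA came from the human melanoma cell line SK-MEL28, grown as a monolayer. On 2 arrays the treated cells had received cisplatin together with electroporation, that is a train of electric pulses (8 in number, each lasting 100 µs, with a field of 1300 V/cm, repeated at 1 Hz) that makes the membrane permeable to the drug. On 3 arrays the treated cells had received cisplatin, a platinum compound that crosslinks DNA, without pulses. Untreated SK-MEL28 cells were the reference on all 5 arrays, labelled with Cy3, and the treated cells were labelled with Cy5. Neither the cisplatin dose nor the time of RNA harvest is stated in the sources. Whether numbered arrays came from separate cultures is not stated either, so p-values reflect array-to-array spread that may be technical. Cells that had electroporation without drug are not analysed here, so the pulses and the extra drug they let in cannot be told apart.

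RB1, RBL1 (p107) and RBL2 (p130) encode the pocket proteins, which bind E2F transcription factors and hold E2F target genes silent. Cyclin-dependent kinases that act with D and E cyclins phosphorylate the pocket proteins, E2F is then released, and genes for DNA synthesis are switched on as the cell leaves G1. E2F1 and E2F3 are activating E2Fs, which RB1 mainly binds, while RBL1 and RBL2 mainly bind the repressive E2F4 and E2F5. RBL2 is the pocket protein of resting cells and RBL1 that of cycling cells. In melanoma the pathway is often disabled through loss of the kinase inhibitor encoded by CDKN2A.

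Some members of the family are themselves E2F targets, so their promoters are shown beside their values. RefSeq promoter windows of build GRCh38.p14, running from 250 bases before to 50 bases after a listed start, were searched on both strands for the E2F site forms TTTGGCGC, TTTGCCGC, TTTCGCGC and TTTCCCGC. A form was present in 1164 of 35116 such windows (3.31%). Capitals mark the match, each sequence runs 5′ to 3′ on the strand of the gene, and where the match lies on the other strand the capitals show its reverse complement. The RBL1 matches begin 26 and 16 bases before the start, those of E2F1 begin 33 and 20 bases before it, and that of E2F3 begins 53 bases before it.
RBL1, chr20:37096005-37096034, minus strand: cagctgcagatTTTCGCGCgctttggcgca
RBL1, chr20:37095998-37096024, minus strand: ttttcgcgcgcTTTGGCGCaggtggtt
E2F1, chr20:33686400-33686429, minus strand: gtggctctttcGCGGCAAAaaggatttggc
E2F1, chr20:33686387-33686416, minus strand: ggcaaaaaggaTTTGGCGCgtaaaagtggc
E2F3, chr6:20401815-20401844, plus strand: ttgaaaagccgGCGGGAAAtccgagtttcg
The RBL2 window at the gene's start holds none of these forms. The other windows of E2F3 and RBL2 hold none either. Their starts lie 1735 and 1148 bases inside the gene, so these windows say nothing about the sequence at the gene's start. The RB1 window in the table lies inside the gene and not at its start, so it says nothing about the RB1 promoter. A match is a run of letters, not a measured binding site.

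Each value is a log2 ratio, treated over untreated RNA, on 1 array after loess normalization, averaged over the spots of a probe. Loess subtracts a fitted trend of the ratio with brightness, so a value is relative to that curve. At the bright end values after loess were not centred on 0. The 8 probes with a mean log2 intensity of at least 15, RBL2 included, had medians of 0.28 for cisplatin with electroporation and 0.34 for cisplatin. A probe was called changed at an adjusted p under 0.05 in limma. By that rule 0 of 3048 probes (0%) were called for cisplatin with electroporation against untreated cells, 0 (0%) for cisplatin against untreated cells and 0 (0%) for the difference between the treatments, and the smallest adjusted p values were 0.0932, 0.106 and 0.994. Without the last listed spots of the second electroporation array, described below, the counts were 0 as well, with smallest adjusted p values of 0.0552, 0.0800 and 0.786. No member was therefore called in any comparison, and the values are given as measured. At an unadjusted limma p under 0.05, the same comparisons held 304, 337 and 107 probes. RNA was taken from whole cultures, so a change of RNA per cell and a change in the share of cells in one phase of the cycle cannot be told apart.

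Signal differed between the members' probes. The brighter RB1 probe, RBL2, E2F1 and E2F3 stood above background in at least 1 channel on every array, as did 1461 of the 3048 probes. The dimmer RB1 probe and RBL1 did not. Markers of cell types were read by the same rule: of 9 listed melanocyte markers 6 were measured, and all 6 stood above background on every array. So did 1 of 2 measured fibroblast markers, 2 of 3 epithelial, 3 of 5 endothelial and 3 of 4 leukocyte markers. Because markers of other cell types passed as well, standing above background does not tell the cell types apart and does not check the identity of the cells. Across probes above background, the ratios of 2 arrays correlated with r between 0.184 and 0.611, and those of both electroporation arrays with r = 0.252. These are correlations across probes, which are not independent replicates.

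The second electroporation array was also read in a reduced form, because some of its spots did not match the other spots of the same probe. Among bright probes, 376 of 1131 last listed spots (33.2%) lay more than 2 log2 units from their probe's median in the untreated channel, against 7 of 3201 (0.219%) of the spots listed before them. On the other arrays between 0.282 and 2.70% of the last listed spots did so. Member values of this array are given with all spots and again without the last listed ones, which are the last of 4 copies and the last 3 of 8. Values of the gene lists in the text are with all spots unless stated otherwise.

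**Figure D1:**
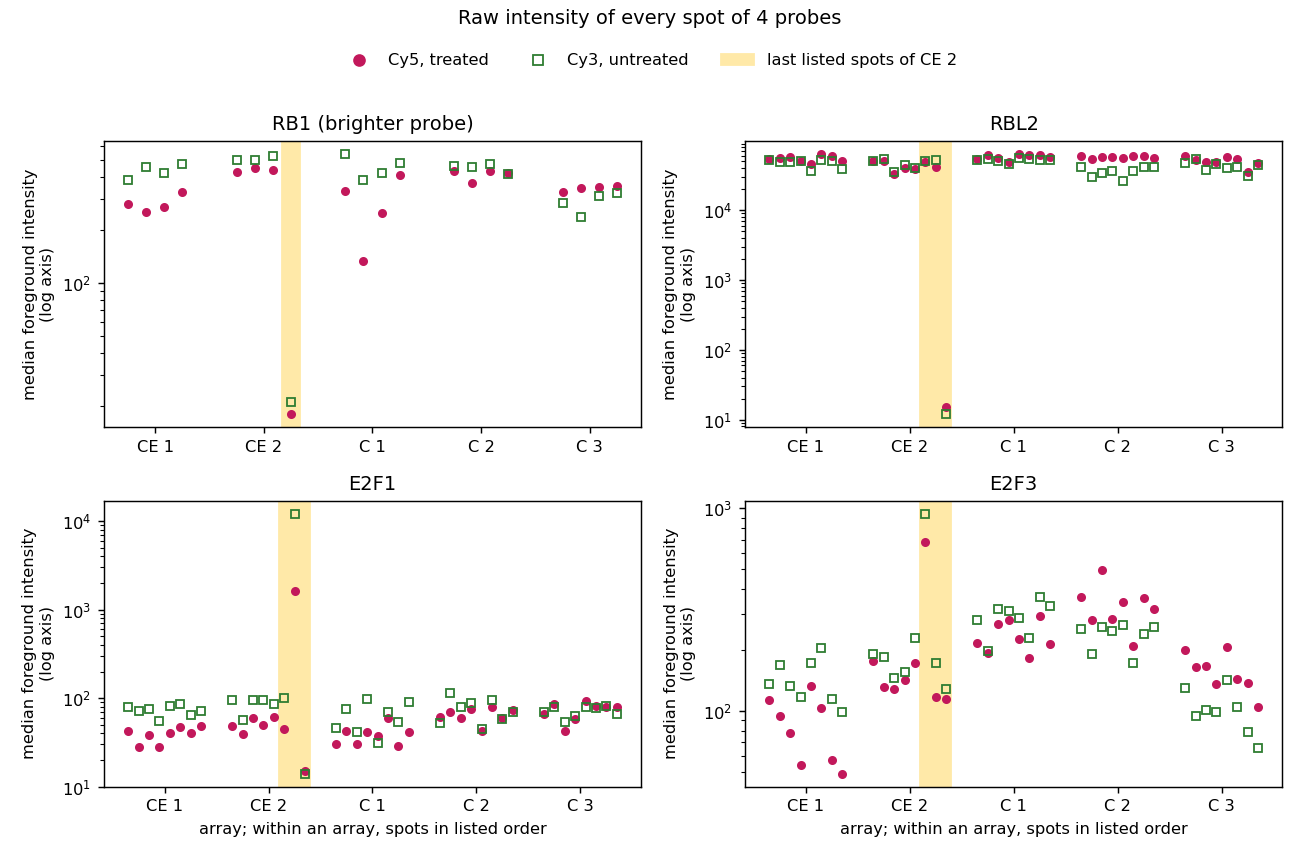
Median foreground intensity of every spot of 4 probes (vertical log axes, scanner units), in listed order within each array; CE 1 and CE 2 are cisplatin with electroporation, C 1 to C 3 cisplatin. Filled circles are treated RNA (Cy5), open squares untreated RNA (Cy3), and shading marks the last listed spots of CE 2. One shaded E2F1 spot stands at 1628 in treated and 12103 in untreated RNA, and one shaded RBL2 spot at 15 and 12.

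The plot of single spots shows this for 4 member probes. For E2F1, the seventh copy on that array read 1628 in treated and 12103 in untreated RNA and the eighth read 15 and 14, while the others read 39 to 61 in treated and 57 to 101 in untreated RNA. For RBL2, the eighth copy read 15 in treated and 12 in untreated RNA, and the others 33328 to 51461 and 35839 to 54481. For the brighter RB1 probe, the fourth copy read 18 and 21, and the others 426 to 450 in treated and 496 to 527 in untreated RNA. For E2F3, the sixth copy read 678 and 940, and the others 115 to 177 in treated and 129 to 228 in untreated RNA. Each stray value was thus on a last listed spot, and it weighed most on E2F1, whose single stray ratio was -2.47.

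**Figure D2:**
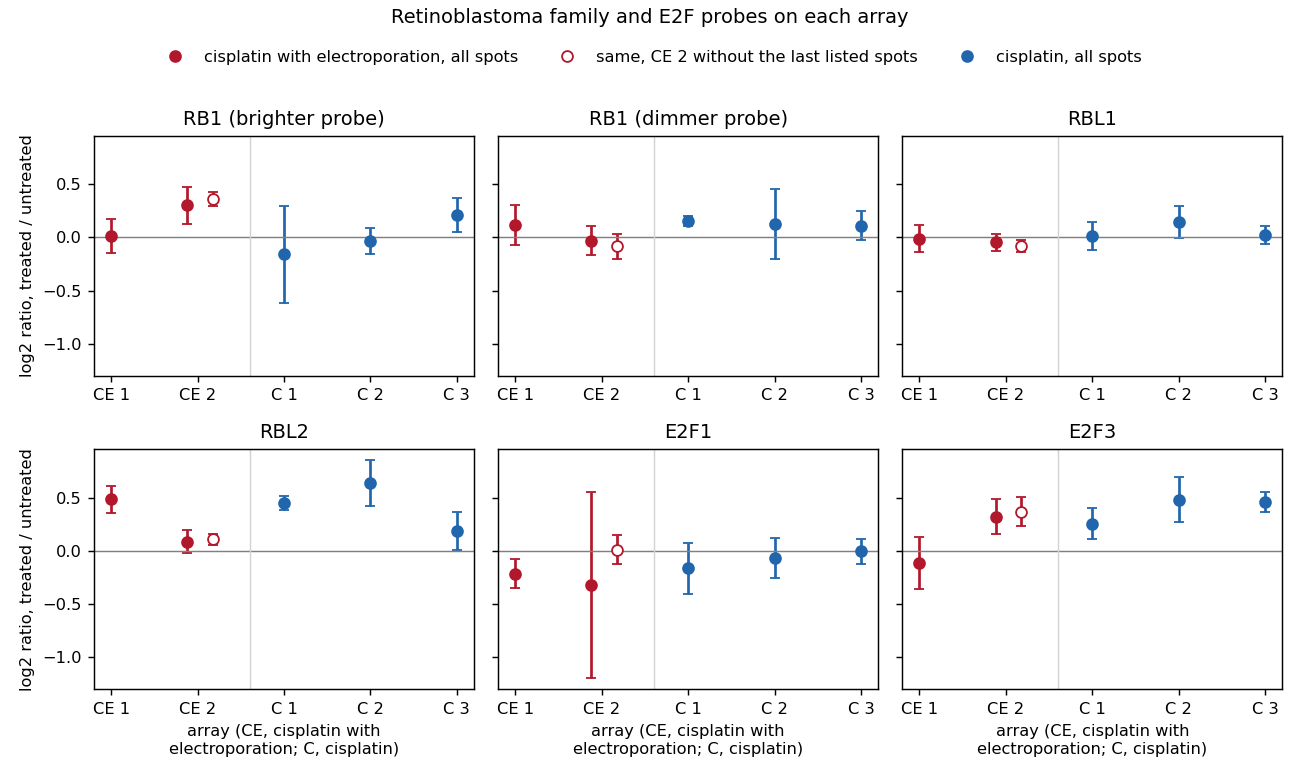
Log2 ratio of treated over untreated RNA on each array (vertical axis) for the 6 probes, with 2 electroporation arrays (CE, red) and 3 cisplatin arrays (C, blue); points are means over the spots of an array and bars are ± 1 SD of those spots. RBL2 lies above 0 on all 5 arrays, E2F3 on all but CE 1, and the E2F1 value of CE 2 moves from -0.32 with all spots to 0.01 without the last listed ones.

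RB1, the founding pocket protein and a tumour suppressor, was read by probes that differed in signal. The brighter RB1 probe (VM_H300020102) stood at 0.01 ± 0.16 and 0.30 ± 0.17 on the electroporation arrays, against -0.16 ± 0.46, -0.04 ± 0.12 and 0.21 ± 0.16 on the cisplatin arrays (SD of 4 spots). The second value was 0.36 ± 0.07 without its last spot. Electroporation array 2 was high in the first group and cisplatin array 3 in the second, array 1 was the lower of each, and the groups overlapped. The spread was also wide within cisplatin array 1, where treated RNA of the 4 RB1 spots differed more than the untreated RNA did.

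The mean for the brighter RB1 probe was 0.16 (SE 0.108, n = 2, limma adjusted p = 0.705) for cisplatin with electroporation, and 0.19 (SE 0.114, adjusted p = 0.641) without the last spot. For cisplatin it was 0.01 (SE 0.0879, n = 3, limma adjusted p = 0.994), with a 95% interval of -0.21 to 0.23. That mean had no stable sign: it was -0.10 without cisplatin array 3. In channel levels, on a log2 scale after normalization between arrays and without the stray spots, RB1 read 8.74 and 9.07 in cells given cisplatin with electroporation, 8.45, 8.71 and 8.80 in cells given cisplatin, and between 8.58 and 8.74 in untreated cells on the 5 arrays. Treated levels of RB1 thus lay on both sides of the untreated range: electroporation array 2 and cisplatin array 3 above it, cisplatin array 1 below it.

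The dimmer RB1 probe (VM_H200006192) read close to background, with only 1 of 4 spots above it in either channel on electroporation array 1. It stood at 0.12 ± 0.19 and -0.03 ± 0.14 on the electroporation arrays (-0.08 for array 2 without its last spot), against 0.16 ± 0.05, 0.13 ± 0.33 and 0.11 ± 0.14 on the cisplatin arrays. All 3 cisplatin arrays lay above 0 and close together, and electroporation array 1 lay among them. The cisplatin mean was 0.13 (SE 0.0394, n = 3, limma adjusted p = 0.329), and the mean for cisplatin with electroporation was 0.04 (SE 0.0483, n = 2, limma adjusted p = 0.824). The probes of RB1 disagreed in order: on cisplatin array 1 the brighter one was the lowest of its 5 values and the dimmer one the highest.

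RBL1 encodes p107, the pocket protein that rises as cells enter S phase. Its probe (VM_H200000025) was barely above background: in treated RNA 0 of 4 spots stood above it on each electroporation array, and in cells given cisplatin 0, 3 and 2 spots did. The ratios were -0.01 ± 0.12 and -0.04 ± 0.08 on the electroporation arrays (-0.08 ± 0.05 for the second without its last spot), against 0.01 ± 0.13, 0.14 ± 0.15 and 0.02 ± 0.09 on the cisplatin arrays. Every electroporation array lay below every cisplatin array, as for 10.7% of all probes with all spots and 9.94% without the last listed ones. With all spots each RBL1 value was within 1 SD of its own spots of 0. In untreated RNA 0 and 2 of 4 spots stood above background on the electroporation arrays, and 0, 0 and 1 on the cisplatin arrays. RBL1 thus had no spot above background in treated cells of either electroporation array, so these ratios are readings near background. No fold change is given, and RBL1 means and differences in the closing sections are readings near background too. The limma adjusted p was 0.896 for cisplatin with electroporation and 0.660 for cisplatin.

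RBL2 encodes p130, the pocket protein that accumulates in cells that have left the cycle. It lay above 0 on all 5 arrays, with 0.48 ± 0.13 and 0.09 ± 0.11 on the electroporation arrays and 0.45 ± 0.06, 0.64 ± 0.21 and 0.19 ± 0.18 on the cisplatin arrays (SD of 8 spots). The second electroporation value was 0.11 ± 0.05 without its last spots. Electroporation array 2 and cisplatin array 3 were the low ones, and the groups overlapped. Of all probes, 203 (6.66%) lay above 0 on every array with all spots and 211 (6.92%) without the last listed ones; among the 6 family probes RBL2 was the one that did.

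The RBL2 mean was 0.29 (SE 0.133, n = 2, limma adjusted p = 0.537) for cisplatin with electroporation, a fold of 1.22, and 0.30 (SE 0.128, adjusted p = 0.510) without the last spots. It was 0.43 (SE 0.109, n = 3, limma adjusted p = 0.291) for cisplatin, a fold of 1.35, with a 95% interval of 0.16 to 0.70. Leaving out 1 array moved the value for cisplatin with electroporation to 0.48 without array 2 and to 0.09 without array 1. Normalized levels without the stray spots were 15.80 and 15.53 in cells given cisplatin with electroporation, 15.86, 15.89 and 15.63 in cells given cisplatin, and 15.25 to 15.44 in untreated cells. So measured, every treated RBL2 level lay above every untreated one, and the treatments overlapped. The share of all probes with such an order was not computed. With all spots, treated RNA of electroporation array 2 read 14.35, below the untreated levels of the other arrays.

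The RBL2 probe was among the brightest on the array, ranked 2 of 2078 genes, which is a property of the probe and its label and no measure of abundance. Median spot intensities were 54923 and 41254 in treated RNA of the electroporation arrays, against 49950.5 and 47307.5 in untreated RNA of the same arrays. They were 59237.5, 57387.5 and 51527.5 in treated RNA of the cisplatin arrays, against 52681.5, 36354.5 and 42792 in untreated RNA of the same arrays. The highest single spot read 63815, and none was at the scanner maximum. Before loess, the RBL2 ratio was 0.21 and -0.08 on the electroporation arrays and 0.15, 0.69 and 0.26 on the cisplatin arrays, so it lay below 0 on electroporation array 2. The loess curve at this brightness was -0.28 and -0.17 for electroporation and -0.31, 0.05 and 0.07 for cisplatin.

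Other bright probes had similar ratios. Of the 8 probes with a mean log2 intensity of at least 15, RBL2 included, 7 lay above 0 for cisplatin with electroporation and 7 for cisplatin, with medians of 0.28 and 0.34. Without the last listed spots, 6 of the 8 lay above 0 for cisplatin with electroporation. RBL2 at 0.29 and 0.43 lay inside the ranges of these probes, -0.10 to 0.36 and 0.00 to 0.52. The part of brightness in the RBL2 ratio was not tested.

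**Figure D3:**
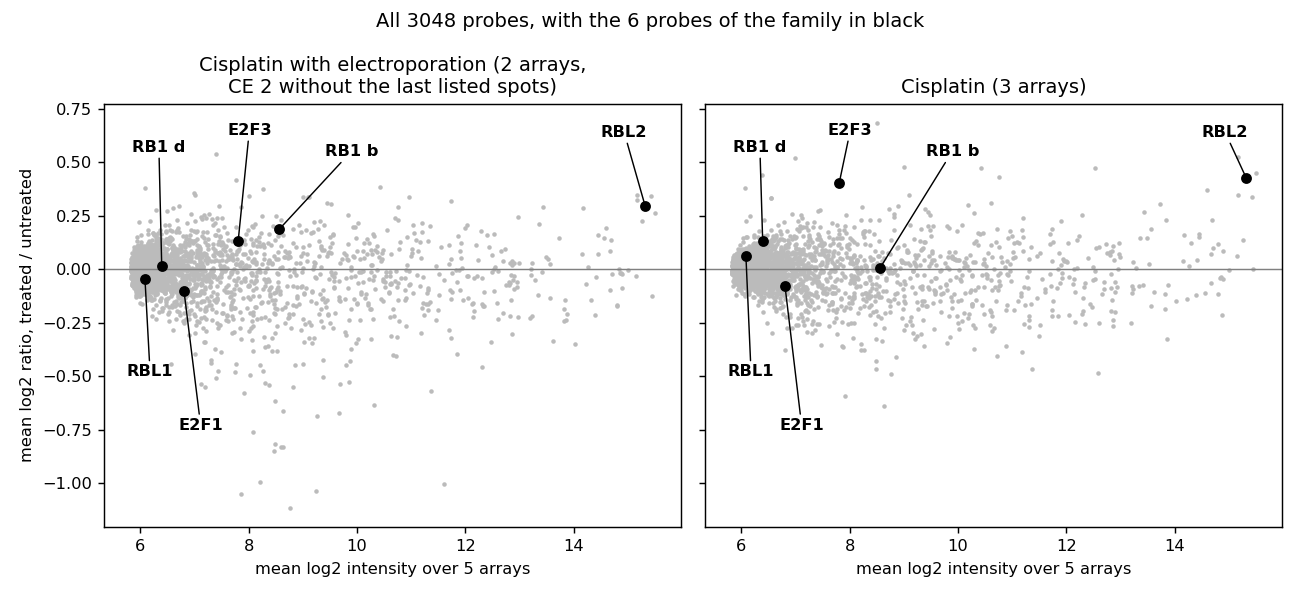
Mean log2 ratio of treated over untreated RNA (vertical axis) against mean log2 intensity (horizontal axis) for the 3048 probes in grey, with cisplatin with electroporation on the left (2 arrays) and cisplatin on the right (3 arrays); RB1 b and RB1 d are the brighter and dimmer probe. RBL2 sits at the bright end among other probes above 0, and E2F3 stands at 0.40 for cisplatin, above most probes of its brightness.

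The plot of all probes sets the members against the rest. For probes above background, the 5th and 95th percentiles were -0.34 and 0.18 for cisplatin with electroporation and -0.24 and 0.18 for cisplatin. RBL2 lay above the 95th percentile in both comparisons and E2F3 in that of cisplatin.

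E2F1 encodes the E2F that activates both S-phase genes and, after DNA damage, genes of cell death. With all spots it stood at -0.21 ± 0.13 and -0.32 ± 0.88 on the electroporation arrays, against -0.16 ± 0.24, -0.06 ± 0.19 and 0.00 ± 0.12 on the cisplatin arrays. So measured, E2F1 lay below 0 on all 5 arrays, as did 287 of all probes (9.42%), and both electroporation arrays lay below all cisplatin arrays. Without the last listed spots the second array stood at 0.01 ± 0.14, above all cisplatin arrays, and the order was lost.

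With all spots the E2F1 mean for cisplatin with electroporation was -0.27 (SE 0.0540, n = 2, limma adjusted p = 0.276), and without the last spots it was -0.10 (SE 0.0677, adjusted p = 0.693). For cisplatin the mean was -0.08 (SE 0.0441, n = 3, limma adjusted p = 0.635). E2F1 was the 1 member with an unadjusted p under 0.05 for cisplatin with electroporation, 1 of 6 probes against 9.97% of all probes, and without the last spots it was 0 of 6 against 10.2%. Normalized levels without the stray spots were 6.47 and 6.73 in cells given cisplatin with electroporation, 6.46, 6.71 and 6.88 in cells given cisplatin, and 6.62 to 6.88 in untreated cells. On electroporation array 1 the E2F1 level in treated RNA was 0.21 below that of untreated RNA, where 2 of 8 treated spots and 8 of 8 untreated ones stood above background.

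E2F3 is another activating E2F, which in mouse cells is needed for normal proliferation. It stood at -0.11 ± 0.24 and 0.32 ± 0.17 on the electroporation arrays (0.37 ± 0.14 for the second without its last spots), against 0.26 ± 0.14, 0.48 ± 0.21 and 0.46 ± 0.09 on the cisplatin arrays. All 3 cisplatin arrays lay above 0. The electroporation arrays disagreed in sign, array 2 lying within the cisplatin range and array 1 below it.

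The cisplatin mean of E2F3 was 0.40 (SE 0.0919, n = 3, limma adjusted p = 0.278), a fold of 1.32, with a 95% interval of 0.17 to 0.63. For cisplatin with electroporation it was 0.11 (SE 0.113, n = 2, limma adjusted p = 0.814), with an interval of -0.18 to 0.39, and 0.13 without the last spots. It was 0.32 without electroporation array 1 and -0.11 without array 2, so that its sign rests on which array is kept. Leaving out any cisplatin array left the cisplatin mean between 0.36 and 0.47. Normalized E2F3 levels without the stray spots were 7.24 and 7.81 in cells given cisplatin with electroporation, 8.30, 8.40 and 7.75 in cells given cisplatin, and 7.35 and 7.44 with 8.04, 7.91 and 7.29 in untreated cells of the same arrays. The untreated level itself differed by array, and on every array it was higher than the level in treated RNA of electroporation array 1.

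The E2F3 ratio depended on the loess curve. Before loess it was -0.55 and -0.26 on the electroporation arrays and -0.26, 0.40 and 0.47 on the cisplatin arrays, and the curve at its brightness was -0.44 and -0.58 for electroporation and -0.52, -0.08 and 0.01 for cisplatin. Electroporation array 2 and cisplatin array 1 therefore changed sign through loess, while cisplatin arrays 2 and 3 moved by 0.08 and 0.01. Median spot intensities for E2F3 were 86 and 137 in treated RNA of the electroporation arrays, against 134.5 and 178 in untreated RNA of the same arrays. On the cisplatin arrays they were 221, 332 and 154 in treated RNA, against 299, 250.5 and 100 in untreated RNA.

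Side by side, E2F3, RBL2 and the dimmer RB1 probe had an unadjusted p under 0.05 for cisplatin, all 3 in the higher direction. That is 3 of 6 family probes against 11.1% of all probes in either direction and 4.95% in the higher one. The dimmer RB1 probe read close to background, and the brighter RB1 probe stood at 0.01. RBL2 lies at the bright end, where values after loess were not centred on 0. Members were chosen with earlier results of these data known, so the count cannot be read as an excess in the family. The probes of RBL1, RBL2 and E2F3 and the dimmer RB1 probe, 4 of 6, lay above 0 on all 3 cisplatin arrays, as did 503 of all probes (16.5%), and no family probe lay below 0 on all 3 except that of E2F1, with 558 of all probes (18.3%). For cisplatin with electroporation, RBL2 and the brighter RB1 probe lay above 0 on both arrays, 2 of 6, as did 702 of all probes (23%). With all spots, E2F1 and RBL1 lay below 0 on both electroporation arrays, as did 924 of all probes (30.3%). None of these counts comes from a test of the family as a set, and the RB1 probes report on 1 gene.

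The treatments were then compared directly, since a dye preference of a probe cancels in that difference. E2F3 differed by -0.29 (SE 0.145, limma adjusted p = 0.994) for cisplatin with electroporation minus cisplatin, with an interval of -0.66 to 0.07. Its size rested on single arrays: it was -0.08 without electroporation array 1 and -0.51 without electroporation array 2. It was -0.27 without the last listed spots, with an interval of -0.65 to 0.11. E2F1 differed by -0.19 (SE 0.0698, limma adjusted p = 0.994) with all spots and by -0.02 (interval -0.24 to 0.19) without the last ones. It was the 1 member of 6 probes with an unadjusted p under 0.05, against 3.51% of all probes.

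RBL2 differed by -0.14 with an interval of -0.57 to 0.29, which leaves room for a difference in either direction. The brighter RB1 probe differed by 0.15 (interval -0.20 to 0.50) and the dimmer one by -0.09 (interval -0.24 to 0.07). For RBL1, near background, the size of the difference is given only among the flagged results and the processing settings, as a reading near background. With all spots the electroporation arrays of RBL1 and E2F1 lay below all cisplatin arrays, as did 325 of all probes (10.7%), and without the last listed spots RBL1 still did, with 303 of all probes (9.94%).

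**Figure D4:**
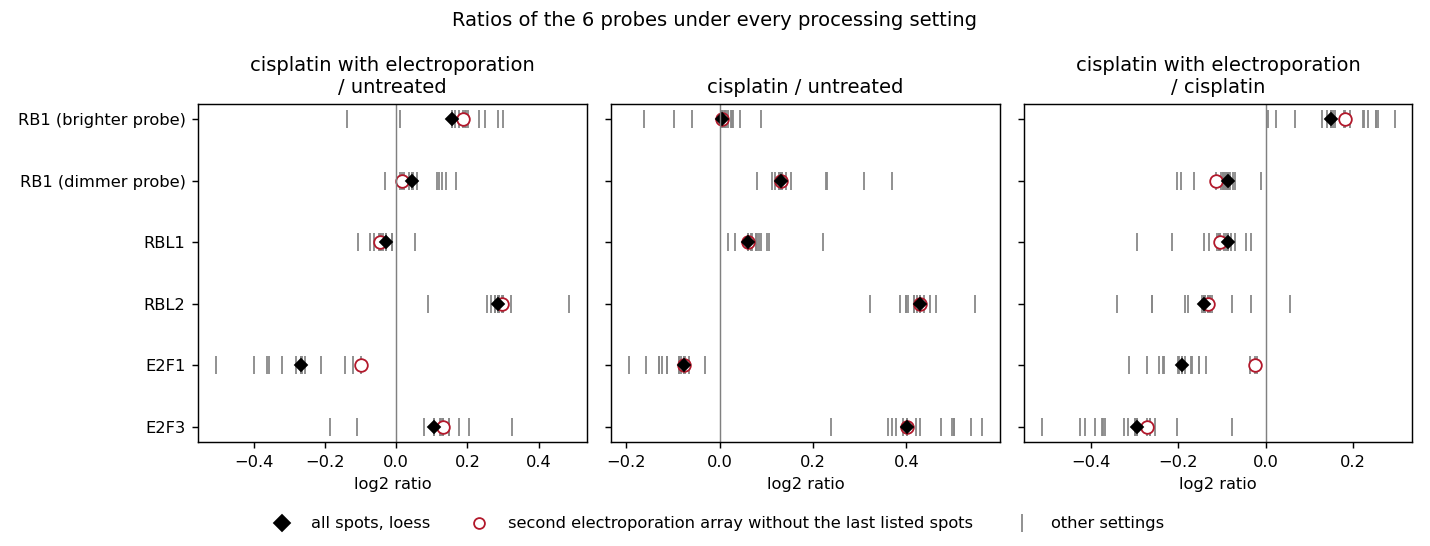
Mean log2 ratio (horizontal axis) of the 6 probes in the 3 comparisons, as computed with all spots (black diamonds), without the last listed spots of the second electroporation array (open circles) and under each other processing setting (grey ticks). For cisplatin, all ticks of RBL2 and E2F3 lie above 0, from 0.32 to 0.55 and from 0.24 to 0.56, while E2F3 for cisplatin with electroporation spans -0.19 to 0.32.

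The plot of settings shows which member values moved. The ratios of RBL2 and E2F3 for cisplatin stayed above 0 under every setting. That of E2F1 for cisplatin with electroporation lay between -0.51 and -0.10, but most settings keep its stray spots. Without the last listed spots electroporation array 2 stood at 0.01, so the sign of E2F1 then rests on array 1. No setting left out both those spots and array 1, so a stable sign of E2F1 was not tested. E2F3 for cisplatin with electroporation changed sign, to -0.19 when arrays were centred on their median without loess. In the authors' deposited table, whose normalization is not given, RBL2 stood at 0.48 and 0.07 on the electroporation arrays and at 0.44, 0.62 and 0.21 on the cisplatin arrays. E2F3 in the authors' deposited table stood at -0.17 and 0.41, and at 0.31, 0.57 and 0.61. For E2F1 the authors' deposited table lists -0.18 and -0.39, and -0.23, -0.08 and -0.03. Its value of -0.39 for electroporation array 2 is nearer to -0.32 with all spots than to 0.01 without the last ones. Which spots entered the authors' value was not tested.

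The partners and regulators of the family were described from lists, and 0 members of any list were called in either direction. Among E2F and DP partners, 3 of 6 were measured, with medians of 0.11 for cisplatin with electroporation and -0.01 for cisplatin. TFDP1, a DP subunit that E2F needs to bind DNA, was the least even, with -0.35 and 0.57 on the electroporation arrays, against -0.36, 0.03 and 0.20 on the cisplatin arrays. E2F5, a repressive E2F bound by RBL2, stood at 0.14 and 0.10, against 0.33, -0.06 and -0.14, and TFDP2, another DP subunit, at -0.02 and -0.09, against -0.09, -0.06 and 0.12. TFDP1 was high on electroporation array 2 and low on array 1 of each treatment, as the brighter RB1 probe was, and in all 3 genes the treatments overlapped.

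Among the G1 cyclins and kinases, which phosphorylate the pocket proteins, 7 of 9 were measured and the median ratio was 0.03 for cisplatin with electroporation and -0.02 for cisplatin, beside -0.01 and 0.00 over all genes. CDK2, the partner of cyclin E, stood at -0.33 and -0.30 on the electroporation arrays, against 0.05, -0.03 and 0.06 on the cisplatin arrays. CCND2, which encodes cyclin D2, went the other way with 0.18 and 0.25, against 0.01, -0.04 and -0.22. In both the treatments did not overlap, which held for 10.7% of all probes with electroporation lower and for 7.32% with electroporation higher, and the differences of -0.34 (SE 0.0523) and 0.29 (SE 0.0820) each had a limma adjusted p of 0.994. CCND1 and CCND3, the other D cyclins, stood at 0.09 and 0.05 for cisplatin with electroporation and at 0.08 and -0.07 for cisplatin.

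Of the inhibitors of these kinases, 7 of 8 were measured, with medians of -0.05 and -0.01. Without the last listed spots the median for cisplatin with electroporation was 0.01. CDKN3, a phosphatase that acts on CDK2 and CDK1, lay below 0 on every array, at -0.18 and -0.07 on the electroporation arrays, against -0.27, -0.42 and -0.09 on the cisplatin arrays. CDKN1B, which encodes p27, stood at 0.01 and 0.12, against -0.15, 0.02 and -0.14. The probes of CDKN1A, the p53-induced p21, and of CDKN2A were not above background on every array. Of the 22 listed names of pocket protein partners 7 genes were measured, with medians of 0.02 and 0.01. RBBP4, a histone chaperone that binds RB1, stood highest of those above background, at 0.18 (SE 0.103) for cisplatin with electroporation and 0.14 (SE 0.0840) for cisplatin.

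**Figure D5:**
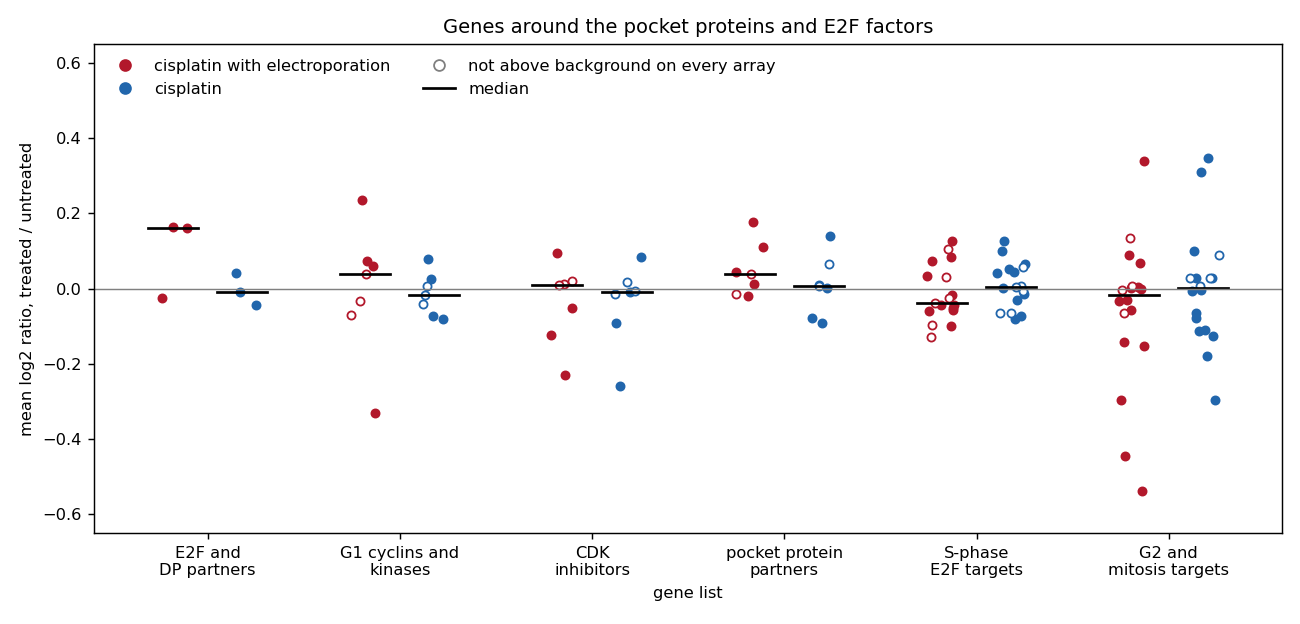
Mean log2 ratio (vertical axis) of each measured gene in 6 lists, for cisplatin with electroporation (red, second array without its last listed spots) and cisplatin (blue); open circles are genes not above background on every array and bars are list medians. Medians of the 5 larger lists lie between -0.04 and 0.04. That of the 3 E2F and DP partners is 0.16 for cisplatin with electroporation and -0.01 for cisplatin. Single genes spread most among G2 and mitosis targets.

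The list medians of targets downstream of E2F lay near 0, as the plot of lists shows. Of the measured genes, 11 of 17 S-phase genes and 14 of 18 G2 and mitosis genes stood above background on every array. The offset of the background correction draws ratios of dim probes toward 0, so these medians partly reflect dim probes. Of 27 listed S-phase genes 17 were measured, with a median of -0.02 (range -0.11 to 0.11) for cisplatin with electroporation and 0.00 (range -0.08 to 0.13) for cisplatin. TYMS, the thymidylate synthase, had the largest difference, with -0.13 and -0.06 on the electroporation arrays, against 0.20, 0.08 and 0.10 on the cisplatin arrays. PCNA, the sliding clamp of DNA polymerase, stood at -0.03 (SE 0.0359) for cisplatin with electroporation and at 0.04 (SE 0.0293) for cisplatin. Genes of the MCM helicase also lay near 0, with MCM6 at -0.02 and -0.08 and MCM7 at -0.02 and -0.07.

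Of 22 listed G2 and mitosis genes, which pocket proteins repress together with the MuvB complex, 18 were measured. Their median was -0.04 for cisplatin with electroporation, where 12 of 18 lay below 0, and 0.00 for cisplatin, where 9 of 18 did. Without the last listed spots the median for cisplatin with electroporation was -0.02, with 11 of 18 below 0. CCNB1, which encodes cyclin B1, lay below 0 on every array, at -0.41 and -0.43 on the electroporation arrays, against -0.29, -0.43 and -0.17 on the cisplatin arrays. TOP2A, a DNA topoisomerase of dividing cells, lay below 0 as well, at -0.34 and -0.14, against -0.04, -0.28 and -0.02. In contrast CDC25C, the phosphatase that activates CDK1, lay above 0 on every array, at 0.57 and 0.09, against 0.54, 0.19 and 0.32. The list thus held genes on both sides of 0, and an unadjusted p under 0.05 was found for 1 higher and 4 lower genes for cisplatin with electroporation, where 2.99% and 6.99% of all probes were so. Without the last listed spots it was 2 higher and 3 lower genes, against 3.71% and 6.53% of all probes. For cisplatin it was 3 higher and 2 lower genes, against 4.95% and 6.1% of all probes.

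The genes most like each member were those with the smallest root mean square difference of the log2 ratio over the 5 arrays, among 1195 genes above background. For RBL2 they were TTYH1 at 0.07, CRABP2 at 0.14 and GLIPR1 at 0.19, where the median over all candidates was 0.45. TTYH1 and CRABP2 ranked 1 and 14 in brightness, close to RBL2 at 2. For E2F3 the nearest was PSMD12, a proteasome subunit, at 0.15 with a median of 0.38. For the brighter RB1 probe it was ELF4 at 0.06 with a median of 0.23, also without the last listed spots. E2F1 had different neighbours with and without the last spots, SLC16A7 at 0.07 in one case and FOSL1 at 0.03 in the other. These are likenesses over 5 arrays that share print layout and dye order, and they carry no test.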

How the data were processed

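The study hybridised RNA of treated (Cy5) and untreated (Cy3) SK-MEL28 cells to 5 two-colour arrays. The deposited scanner files give, per the file headers, raw intensity and local background per spot and channel, without normalization. No header names the dyes. Channel 1 was read as Cy3 and channel 2 as Cy5, as numbered in the labels. The authors' deposited value table holds log2 ratios of 2560 probes. Its columns followed channel 2 over channel 1 with r from 0.812 to 0.889 and had medians from -0.03 to 0.02, so direction and centring are known, while how they were normalized is not stated in the sources. It served as an alternative.

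Median foreground was corrected with normexp (offset 50) and normalized by loess (span 0.3) in limma 3.58.1 under R 4.3.3, and spots were averaged per probe. The offset draws ratios toward 0, most in dim probes. Contrasts were fitted in 1 limma model over 5 arrays with 3 residual degrees of freedom, two-sided, with Benjamini-Hochberg adjustment over 3048 probes (threshold 0.05). The SE for cisplatin with electroporation thus also rests on the cisplatin arrays, and the number of arrays limits the precision. Dyes were not exchanged, so a dye preference stays in ratios to untreated cells. Above background means that at least 0.5 of the spots exceeded local background by 2 SD. Channel levels were computed with Aquantile and compared within a probe. The steps were tested on simulated data.

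Members and gene lists were chosen with earlier results of these data known. Named genes were all members, up to 4 per list with the largest ratio among genes above background, and 3 nearest genes per member; MCM6, MCM7, PCNA, CDKN1A and CDKN2A were named after their values were seen. Gene names came from the platform annotation, which named 2192 probes. No genome build or probe sequence is used for the probes. Alternatives covered background correction, normalization, spots, filters, weights, variance model, replicate block and arrays left out.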

Additional observations from a re-analysis of the deposited data

Results flagged for a closer look

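In untreated RNA with all spots, the level of the brighter RB1 probe on the second electroporation array stood apart from the other 4 arrays, at 7.98 against 8.60 for the next (gap over range 0.797, critical value 0.71). The same was true of RBL2, at 14.3 against 15.2 (gap over range 0.842). Both probes hold 1 stray last listed spot on that array, and neither level stood apart without the last listed spots. The 12 groups of levels were all checked, and chance sets about 1 in 20 apart. RBL1 lay below 0 on every electroporation array and above 0 on every cisplatin array, with a difference of -0.087 with all spots and -0.10 without the last listed ones. The limma adjusted p of that difference was 0.994 and 0.999, so it was not called. The share of all probes with this split of signs was not computed. Electroporation arrays lay below all cisplatin arrays for 325 of all probes (10.7%) with all spots and 303 (9.94%) without the last listed ones. In treated RNA of the electroporation arrays 0 of 4 RBL1 spots stood above background, so the RBL1 difference is between readings near background.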

How the results depend on the processing

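Of 369 member values under other settings, 357 kept their direction and their side of the threshold. Treating single spots as repeated measures with the array as a random block called RBL2 for cisplatin with electroporation (0.29, limma adjusted p = 0.00797) and RBL2 and E2F3 for cisplatin (0.43 and 0.40). The fitted correlation of spots within an array was 0.0933, and it was shared by all probes. RBL2 itself stood at 0.48 and 0.09 on the electroporation arrays. Spots of an array are not replicates of a treatment, so p-values of this setting do not measure the spread of a probe between arrays or cultures. In 9 values the sign changed. With median centring and no loess these were the brighter RB1 probe (-0.14), RBL1 (0.053) and E2F3 (-0.19) for cisplatin with electroporation and the brighter RB1 probe for cisplatin (-0.16); this setting moves the median of probes above background to -0.23 and -0.11. The brighter RB1 probe for cisplatin was -0.059 with the first 3 listed spots. The others came from leaving out 1 array: dimmer RB1 probe for cisplatin with electroporation, -0.031 to 0.12; E2F3 for cisplatin with electroporation, -0.11 to 0.32; brighter RB1 probe for cisplatin, -0.098 to 0.088; RBL2 difference between treatments, -0.34 to 0.056. The cause was not tested.

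Counts of called probes, 0 in each comparison, changed as follows. For cisplatin with electroporation they were 10 with no background correction, 35 with median centring, 1 with scale normalization, 11 with dim probes left out, 8 in the authors' deposited table, 92 with single spots and 0 to 93 with 1 array left out, 93 without electroporation array 1 and 1 without cisplatin array 3. For cisplatin they were 4 with no background correction, 1 in the authors' deposited table, 129 with single spots and 0 with any array left out. For the difference they were 2 with single spots and 0 to 47 with 1 array left out, 47 without electroporation array 1. Where 1 electroporation array remains, it is assumed to vary like the others. Without electroporation array 1, the array that remains is array 2 with all its spots, the stray last listed ones included. Among bright probes, 33.2% of its last listed spots lay more than 2 log2 units from their probe's median in the untreated channel. No setting left out both those spots and array 1, so how many of these calls rest on them was not tested. Counts with single spots treat spots of an array as repeated measures and do not measure spread between cultures.

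Numbers 1 and 2 occur in both treatments, but no label says that they pair samples. With a replicate block 0 probes were called for the difference, and the members stood at -0.15 (E2F1), -0.26 (E2F3), 0.25 and -0.10 (RB1 probes), -0.11 (RBL1) and -0.26 (RBL2). Deviations of same-numbered arrays correlated with 0.336 and 0.120, and those of electroporation array 2 and cisplatin array 3 with 0.282. The other pairs had the same values with a minus sign, because deviations of 2 electroporation arrays from their mean are opposite. These correlations therefore cannot show whether the numbers pair samples.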
